A study of Mus musculus with 6 samples.

Results

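The 39 genes described here encode the machinery that builds ribosomes: RNA polymerase I with 2 of its initiation factors, nucleolar scaffold proteins, the proteins of small nucleolar ribonucleoproteins (snoRNPs), assembly factors of the small and the large ribosomal subunit, and the transcription factor MYC. They were chosen by symbol and function, with earlier results of these data known, and all 39 had a row in a table of 21988 genes. The RNA came from mouse embryonic fibroblasts (MEFs), primary cells isolated from C57BL/6 embryos and passaged in DMEM with fetal bovine serum; the labels name no mutation or drug in any group. The groups were cells harvested at population doubling (PD) 2, 8 and 14, where 1 population doubling is 1 doubling of the cell number, summed over passages. The series title names senescence, a state in which cultured cells stop dividing for good. Each group had 2 libraries: replicate 1 was strand-specific and made after removal of ribosomal RNA (rRNA), and replicate 2 selected polyadenylated RNA. Nothing in the labels says that the 2 libraries of a group came from separate cultures or embryos. The fit below takes out the difference in level between the 2 methods. Its p-values thus rest on how far the changes between groups differ from method to method, together with a spread shared across genes. That spread between these 6 libraries may be technical.

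Ribosomes are made in the nucleolus. RNA polymerase I transcribes the ribosomal DNA with the help of UBTF, which binds that DNA, and RRN3, which links the polymerase to its promoter. Box C/D snoRNPs guide methylation of the precursor rRNA and box H/ACA snoRNPs guide pseudouridylation, while assembly factors fold, cut and export the subunits. MYC is known to raise transcription of many genes of this pathway, and dividing cells make ribosomes faster than arrested ones. The libraries report messenger RNA of these genes and do not measure rRNA synthesis. In such bulk samples, fewer cells of a type and less RNA per cell cannot be told apart.

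Values are TPM, the usual unit of transcript abundance, scaled for transcript length and library total, which can be compared between genes of a library. Changes are differences of log2(TPM + 1), fitted with limma over all 6 libraries with library method as a block, and given ± the standard error (SE; n = 2 libraries per group). A gene was called where the Benjamini-Hochberg adjusted p, over the 13332 genes with at least 1 TPM in at least 2 libraries, was under 0.05. In counts of genes below, fell and rose mean called lower and called higher. All 39 genes passed that filter. Depth is unknown, since TPM keep no record of how many reads lie behind them. The deposited TPM summed to 1000000 in each poly(A) library and to between 93.7% and 95.1% of that in the rRNA-depleted ones. The fibroblast collagen gene Col1a1 was at 3068 TPM or more in every library. Cd3e of T lymphocytes was listed at 0, and Epcam, Cdh1, Pecam1, Cdh5 and Myod1 stayed under 1 TPM. Other markers of such cells were present. In the rRNA-depleted library of PD2 the macrophage and leukocyte, muscle, epithelial and endothelial marker lists summed to 151, 50.3, 22.1 and 8.06 TPM. In the poly(A) library of PD2 these lists summed to 405, 109, 39.2 and 11.4 TPM. A neural marker list summed to 121.5 TPM in the rRNA-depleted and 221 TPM in the poly(A) library of PD2.

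Part of the promoter sequence is shown because MYC, with its partner MAX, binds the E-box CACGTG, which reads the same on both strands. RefSeq promoters (GRCm38.p6, the mm10 build; 250 bases before to 50 after a gene start) were found for 34 of the 39 genes; Myc, Npm1, Fbl, Rrp12 and Bop1 had no entry. CACGTG was present in 7 of the 34 genes (20.6%), against 1177 of 10119 genes (11.6%) that were tested and had a promoter, and 8.09% of all genes of the promoter table. A match is a description of the letters and not a binding site. Each of the 8 matches is printed 5′ to 3′ on the strand of its gene with up to 12 bases on either side, the E-box in capitals, and the place of its first base counted from the gene start, where -1 is the last base before the start and 1 the first base of the transcript.
Rrn3 (chr16:13780472-13780501, + strand, motif at -215): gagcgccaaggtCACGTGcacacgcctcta
Rrn3 (chr16:13780639-13780668, + strand, motif at -48): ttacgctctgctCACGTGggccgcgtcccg
Utp20 (chr10:88826765-88826789, - strand, motif at 38): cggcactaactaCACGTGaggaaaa
Tsr1 (chr11:74898092-74898121, + strand, motif at 25): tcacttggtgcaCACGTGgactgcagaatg
Ltv1 (chr10:13193092-13193121, - strand, motif at 29): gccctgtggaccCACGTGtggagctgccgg
Wdr43 (chr17:71616220-71616249, + strand, motif at 18): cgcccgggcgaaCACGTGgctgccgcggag
Nop2 (chr6:125131811-125131840, + strand, motif at -60): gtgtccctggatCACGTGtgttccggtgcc
Pes1 (chr11:3963965-3963994, + strand, motif at 3): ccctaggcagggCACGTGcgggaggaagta
The fitted log2 changes of these 7 genes, PD14 minus PD2, were -0.28 for Rrn3, -0.49 for Utp20, -0.37 for Tsr1, -0.61 for Ltv1, -0.76 for Wdr43, -0.69 for Nop2 and -0.60 for Pes1. Of these 7, Wdr43, Nop2 and Pes1 were called lower. Of the called genes with a promoter entry, 3 of 10 held the E-box. The 250 bases before the start are given whole for Nop2, which was called lower, and for Rrn3, which was not and held 2 matches; neither stretch overlaps an annotated exon.
Nop2 upstream (chr6:125131633-125131882, + strand): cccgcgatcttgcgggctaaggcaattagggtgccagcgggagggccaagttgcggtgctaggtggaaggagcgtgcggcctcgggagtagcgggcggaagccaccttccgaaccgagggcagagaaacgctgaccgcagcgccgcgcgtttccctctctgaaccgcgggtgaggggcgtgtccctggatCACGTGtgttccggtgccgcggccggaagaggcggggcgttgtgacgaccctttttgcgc
Rrn3 upstream (chr16:13780449-13780698, + strand): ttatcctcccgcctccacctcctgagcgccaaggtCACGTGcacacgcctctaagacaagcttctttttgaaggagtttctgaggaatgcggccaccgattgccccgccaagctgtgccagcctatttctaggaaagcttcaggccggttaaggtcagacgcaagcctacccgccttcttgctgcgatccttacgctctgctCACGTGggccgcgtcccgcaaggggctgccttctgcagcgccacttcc

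PD14 was compared with PD2 to ask how the pathway's transcripts changed over the whole passage series. Of the 39 genes, 12 were called lower at PD14 and 0 higher (limma; 30 lower and 0 higher at an unadjusted p under 0.05). Among all genes tested, 4.77% were called lower and 6.41% higher, and at the unadjusted threshold 14.1% were lower and 17.9% higher. These are 636 lower and 854 higher genes, a split that quantile normalization turned to 834 lower and 736 higher. The 12 were the nucleolar genes Npm1, Ncl, Nolc1, Gnl3 and Ddx21, the snoRNP genes Fbl, Nop56 and Nhp2, the small-subunit gene Wdr43 and the large-subunit genes Noc2l, Nop2 and Pes1. The 39 genes had a median fitted log2 change of -0.58, against 0.06 for all genes tested, and ranged from -1.03 for Dkc1 to 0.11 for Nop10. The summed TPM of the 39 genes was 2233 at PD14 against 3389 at PD2 in rRNA-depleted RNA, and 2536 at PD14 against 4692 at PD2 in poly(A) RNA. PD14 thus held 65.9% and 54.0% of the PD2 sums, and 68.8% and 61.0% with Npm1, the most abundant of them, left out.

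The value at PD14 was below that at PD2 in both library methods for 35 of the 39 genes, as it was for 30.8% of all genes tested, and above it in both for 0, against 38.8%. Nop10, Polr1c and Ubtf were higher at PD14 in rRNA-depleted and lower in poly(A) RNA, as 15.1% of all genes were, and Wdr74 was the reverse, as 15% were. The fitted value was below 0 for 36 of the 39, against 45.1% of all genes. Both PD14 libraries lay below both PD2 libraries in TPM for 26 of the 39, against 15.8% of all genes tested. For 0 of the 39 did both PD14 libraries lie above both PD2 libraries, against 22.4% of all genes. The count of calls changed with single libraries. Limma called 0 of the 39 without either PD8 library or without either PD14 library, 5 without the PD2 poly(A) library and 15 without the PD2 rRNA-depleted library. Among all genes tested, 0 to 3 were then called lower and 0 to 22 higher without a PD8 or PD14 library, 526 lower and 721 higher without the PD2 poly(A) library, and 612 lower and 1181 higher without the PD2 rRNA-depleted library. With those libraries left out, between 14 and 25 were lower at an unadjusted p under 0.05 and the median of the 39 lay between -0.76 and -0.47. Without library method as a block, 0 were called (10 at an unadjusted p under 0.05).

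**Figure D1:**
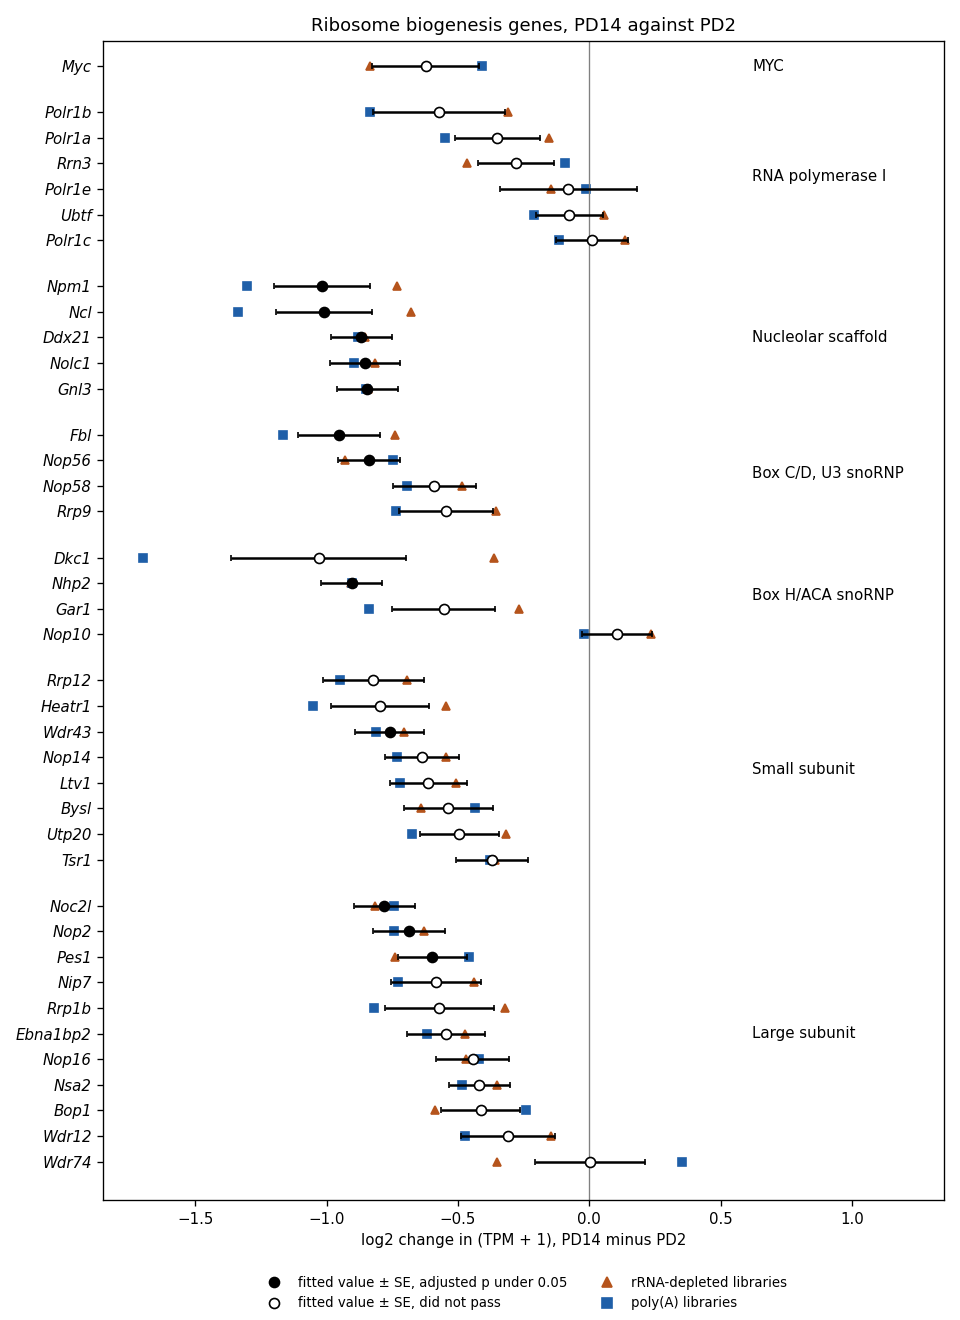
Fitted log2 change in (TPM + 1) of each of the 39 genes, PD14 minus PD2 (horizontal axis), in rows grouped by role; circles with bars are the fitted value ± SE (n = 2 libraries per group), filled where the adjusted p was under 0.05, and triangles and squares are the difference within each library method (rRNA-depleted and poly(A)). The 12 filled circles lie between -1.02 and -0.60, and Polr1c, Nop10 and Wdr74 have fitted values just above 0.

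MYC stands upstream of the pathway as a transcription factor (chromosome 15, 61985391 to 61990374 on mm10). Myc measured 37.6, 36.9 and 20.6 TPM over PD2, PD8 and PD14 after rRNA depletion, and 47.4, 38.0 and 35.4 TPM after poly(A) enrichment. The PD14 libraries were the lowest of their method, and the rRNA-depleted one was the lower of the pair. The fitted change of -0.62 ± 0.20 (adjusted p = 0.109) did not pass, with a 95% interval of -1.14 to -0.10. At PD14 Myc was at 54.9% of its PD2 level in the rRNA-depleted pair and 74.8% in the poly(A) pair.

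RNA polymerase I and its initiation factors gave 0 calls among 6 genes in either direction (limma; 0 at an unadjusted p under 0.05). Among all genes tested, 4.77% were called lower and 6.41% higher (14.1% and 17.9% at the unadjusted threshold). The median fitted change of the 6 genes was -0.18. Polr1a and Polr1b encode the largest subunits, which form the catalytic centre. Polr1a measured 34.3, 30.7 and 30.7 TPM over PD2, PD8 and PD14 after rRNA depletion, and 35.9, 27.6 and 24.2 TPM after poly(A) enrichment. Polr1b measured 17.0, 16.9 and 13.5 TPM over PD2, PD8 and PD14 after rRNA depletion, and 26.9, 14.1 and 14.6 TPM after poly(A) enrichment. Their PD14 values were below those at PD2 in both methods, by a wider margin in the poly(A) libraries, and the fitted changes were -0.35 ± 0.16 (adjusted p = 0.207) and -0.57 ± 0.25 (adjusted p = 0.192). Polr1c is a subunit shared with RNA polymerase III. Polr1c measured 38.3, 40.2 and 42.2 TPM over PD2, PD8 and PD14 after rRNA depletion, and 49.8, 50.8 and 45.9 TPM after poly(A) enrichment. It stayed within a narrow range in each method, and its fitted change of 0.0106 ± 0.14 (adjusted p = 0.966) had a 95% interval of -0.34 to 0.36.

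Polr1e encodes a subunit that takes part in initiation and elongation. Polr1e measured 10.5, 9.24 and 9.42 TPM over PD2, PD8 and PD14 after rRNA depletion, and 19.1, 31.3 and 18.9 TPM after poly(A) enrichment. Its highest value was that of PD8 in the poly(A) libraries, where it was 164% of PD2, and the fitted change between PD14 and PD2 was -0.0799 ± 0.26 (adjusted p = 0.858). Ubtf measured 95.9, 94.9 and 99.8 TPM over PD2, PD8 and PD14 after rRNA depletion, and 82.8, 72.1 and 71.5 TPM after poly(A) enrichment. UBTF, the factor that keeps ribosomal DNA in an open state, had the highest level of these 6 genes, and its values at PD14 and PD2 differed in sign between methods, with a fitted -0.076 ± 0.13 (adjusted p = 0.713) and a 95% interval of -0.40 to 0.25. Rrn3 measured 63.8, 54.4 and 46.0 TPM over PD2, PD8 and PD14 after rRNA depletion, and 58.7, 54.7 and 55.0 TPM after poly(A) enrichment. The values of Rrn3 at PD14 were below those at PD2 in both methods, at -0.28 ± 0.15 (adjusted p = 0.251) and a 95% interval of -0.65 to 0.09. A p that misses the threshold does not show that these genes did not change, and the intervals of Polr1a, Polr1b and Polr1e reach down to -0.76, -1.21 and -0.74.

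**Figure D2:**
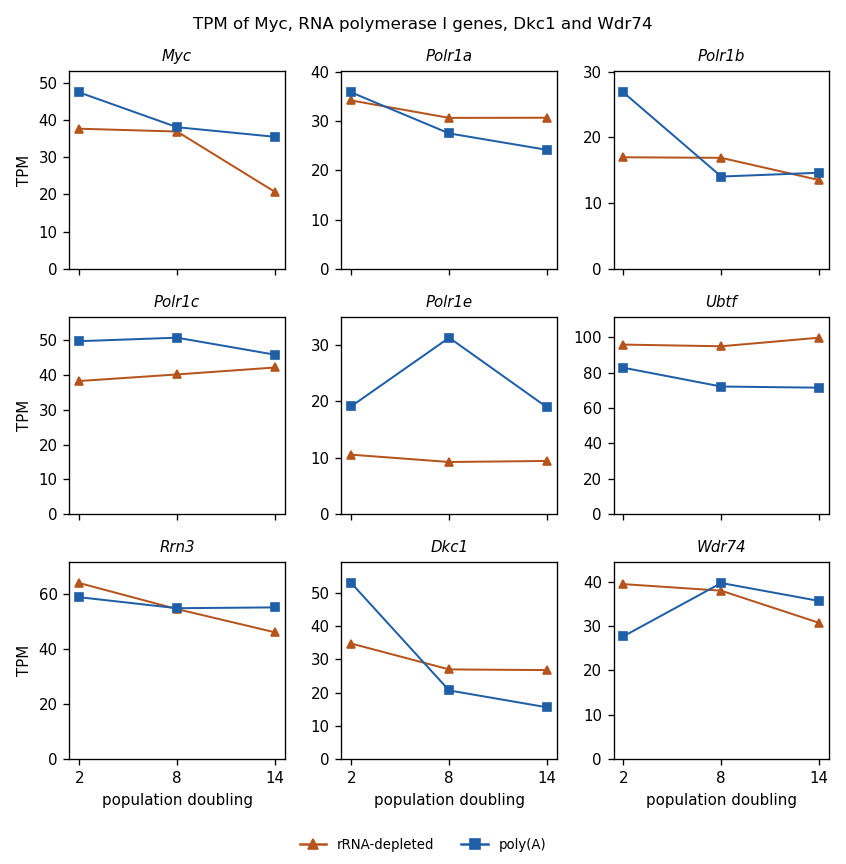
TPM (vertical axes, starting at 0) at population doubling 2, 8 and 14 (horizontal axis) for Myc, the 6 RNA polymerase I genes, Dkc1 and Wdr74; triangles are rRNA-depleted and squares poly(A) RNA, 1 library per point. Polr1c and Ubtf stay within 38.3 to 50.8 and 71.5 to 99.8 TPM, Dkc1 is at 15.6 TPM in the poly(A) and 26.8 TPM in the rRNA-depleted library of PD14, and Wdr74 differs in direction between methods.

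All 5 nucleolar scaffold and chaperone genes were called lower, against 4.77% of all genes tested, with fitted values from -1.02 to -0.85. Npm1 encodes nucleophosmin, an abundant chaperone of nucleolar assembly (chromosome 11, 33152287 to 33163206). Npm1 measured 1149.9, 822 and 692 TPM over PD2, PD8 and PD14 after rRNA depletion, and 1590.5, 905 and 643 TPM after poly(A) enrichment. Ncl, which encodes the RNA-binding nucleolin (chromosome 1, 86344719 to 86359400), measured 269, 209.9 and 168 TPM over PD2, PD8 and PD14 after rRNA depletion, and 323, 208 and 127 TPM after poly(A) enrichment. For both genes the 3 groups were ordered alike in both methods and the PD14 and PD2 libraries did not overlap. Npm1 fell by 1.02 ± 0.18 (adjusted p = 0.0349) and Ncl by 1.01 ± 0.18 (adjusted p = 0.035) on the log2 scale. The differences were wider in the poly(A) libraries, where PD14 was at 40.4% of PD2 for Npm1 and 39.3% for Ncl, than in the rRNA-depleted ones, where it was at 60.2% and 62.3%.

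Nolc1, Gnl3 and Ddx21 moved by nearly the same amount in both methods. Nolc1 encodes NOPP140, which binds snoRNPs on their way to the nucleolus. Nolc1 measured 54.7, 40.8 and 30.7 TPM over PD2, PD8 and PD14 after rRNA depletion, and 80.7, 51.3 and 42.9 TPM after poly(A) enrichment. Gnl3 encodes nucleostemin, a GTP-binding protein of the nucleolus that is abundant in stem cells and dividing cells. Gnl3 measured 114, 78.8 and 63.4 TPM over PD2, PD8 and PD14 after rRNA depletion, and 168, 105 and 92.8 TPM after poly(A) enrichment. Ddx21, an RNA helicase that acts at ribosomal DNA and on precursor rRNA, measured 100.3, 68.8 and 55.0 TPM over PD2, PD8 and PD14 after rRNA depletion, and 134, 84.2 and 72.1 TPM after poly(A) enrichment. In all 3 genes every PD14 value was below every PD2 value, and PD8 lay between them within each method. The fitted changes were -0.86 ± 0.13 (adjusted p = 0.0288), -0.85 ± 0.12 (adjusted p = 0.0235) and -0.87 ± 0.12 (adjusted p = 0.0225). PD14 was at 53.2% to 56.1% of PD2 in the 2 methods for these genes.

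**Figure D3:**
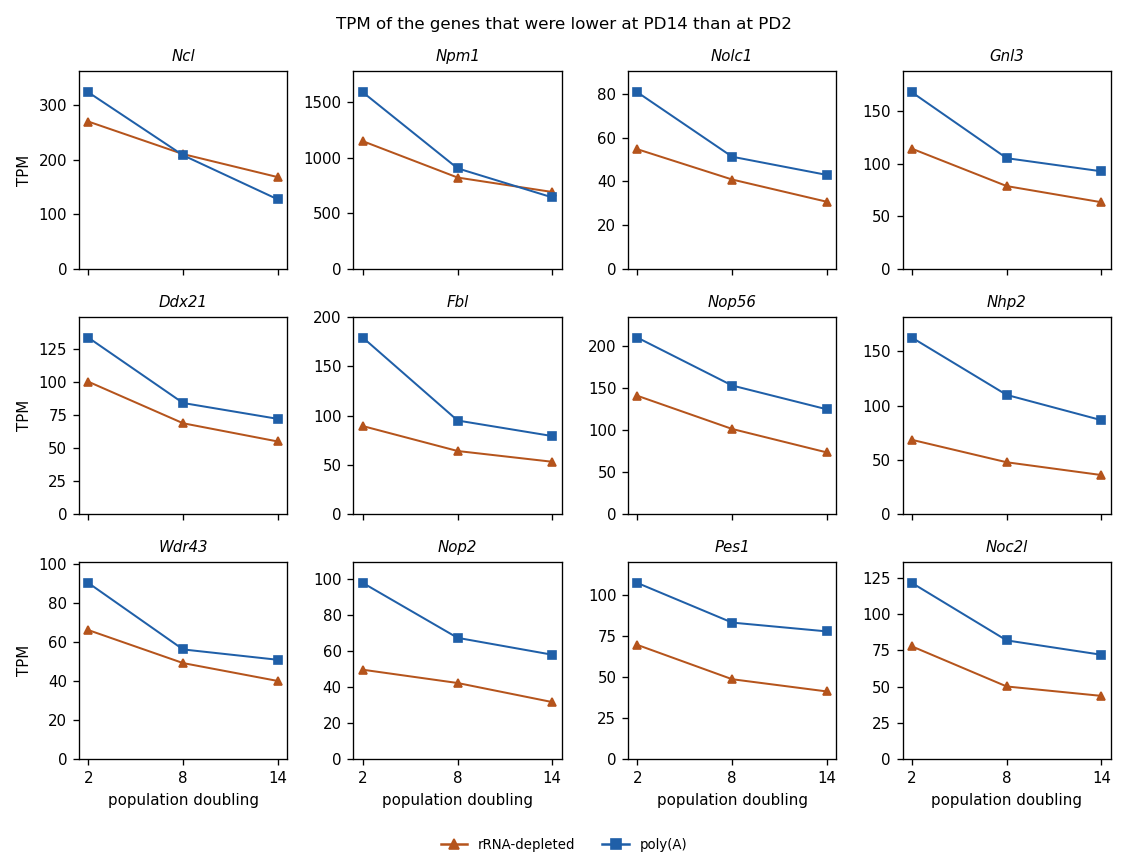
TPM (vertical axes, starting at 0) at population doubling 2, 8 and 14 (horizontal axis) for the 12 genes called lower at PD14 than at PD2; triangles are rRNA-depleted and squares poly(A) RNA, 1 library per point. In all 12 panels both lines decline at each step, and for Ncl and Npm1 the poly(A) line starts above the rRNA-depleted line and ends below it.

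The box C/D snoRNP is built on fibrillarin, the methyltransferase encoded by Fbl, with NOP56 and NOP58, and RRP9 is a protein of the U3 snoRNP that acts in small-subunit processing. Of these 4 genes, Fbl and Nop56 were called lower, against 4.77% of all genes tested. Fbl measured 89.3, 64.0 and 53.1 TPM over PD2, PD8 and PD14 after rRNA depletion, and 179, 94.9 and 79.2 TPM after poly(A) enrichment. Nop56 measured 141, 101 and 73.3 TPM over PD2, PD8 and PD14 after rRNA depletion, and 209.8, 153 and 125 TPM after poly(A) enrichment. Every PD14 value was below every PD2 value in both genes, with fitted changes of -0.95 ± 0.16 (adjusted p = 0.0309) and -0.84 ± 0.12 (adjusted p = 0.0244). Nop58 was at -0.59 ± 0.16 and Rrp9 at -0.55 ± 0.18, with adjusted p of 0.0748 and 0.11, and both had lower values at PD14 than at PD2 in each method.

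The box H/ACA snoRNP consists of dyskerin, the pseudouridine synthase encoded by Dkc1, with NHP2, NOP10 and GAR1. Of its 4 genes 1 was called lower, against 4.77% of all genes tested. Nhp2 fell by 0.91 ± 0.11 on the log2 scale, with the smallest adjusted p of the 39 genes (0.021). Nhp2 measured 68.4, 47.8 and 35.98 TPM over PD2, PD8 and PD14 after rRNA depletion, and 163, 109.9 and 86.6 TPM after poly(A) enrichment. Its PD14 level was 52.6% and 53.2% of PD2 in the 2 methods, but the PD14 poly(A) value lay above the PD2 rRNA-depleted value, since the poly(A) values of this gene were the higher ones in each group. Dkc1 measured 34.7, 27.0 and 26.8 TPM over PD2, PD8 and PD14 after rRNA depletion, and 52.9, 20.7 and 15.6 TPM after poly(A) enrichment. Dkc1 had the most negative fitted change of the 39 and the widest gap between methods, at -1.70 in poly(A) and -0.36 in rRNA-depleted RNA, and its fitted -1.03 ± 0.33 (adjusted p = 0.105) missed the threshold. Over 15 alternative settings of the analysis, the fitted value of Dkc1 ranged from -1.60 to -0.46. The value of -1.60 came with the rRNA-depleted library of PD2 left out. Gar1 was at -0.55 ± 0.20 (adjusted p = 0.126), and ranged from -0.85 to -0.26 over those settings. Nop10, the smallest protein of the complex, was at 0.11 ± 0.13 (adjusted p = 0.616), with 95% interval -0.23 to 0.45.

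Of 8 assembly factors of the small subunit, 1 was called lower, against 4.77% of all genes tested. All 8 had negative fitted values, against 45.1% of all genes, with a median of -0.63. Wdr43, a WD-repeat protein of the early small-subunit precursor (with 66.2, 49.3 and 40.2 TPM over PD2, PD8 and PD14 after rRNA depletion, and 90.3, 56.3 and 51.0 TPM after poly(A) enrichment), fell by 0.76 ± 0.13 (adjusted p = 0.0332). Its PD14 values were below its PD2 values in every pairing of libraries. Of the factors of that early precursor, Nop14 was at -0.64 ± 0.14 with an adjusted p of 0.0501, the nearest to the threshold, Heatr1 at -0.80 ± 0.19, Rrp12 at -0.82 ± 0.19 and Utp20 at -0.49 ± 0.15. The later factors Ltv1, Bysl and Tsr1, which act before the subunit matures in the cytoplasm, were at -0.61 ± 0.15, -0.54 ± 0.17 and -0.37 ± 0.14. The adjusted p of the 7 genes other than Wdr43 lay between 0.0501 and 0.14, and in both methods each had a lower value at PD14 than at PD2. Over the 15 alternatives Nop14 ranged from -0.77 to -0.51 and Ltv1 from -0.76 to -0.47. With all libraries kept, Nop14 was called under a filter of 5 TPM in 2 libraries, under either rescaling of TPM and under quantile normalization.

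Of 11 assembly factors of the large subunit, 3 were called lower, against 4.77% of all genes tested, and the median was -0.55. Noc2l, which encodes a nucleolar protein that also acts as an inhibitor of histone acetylation, measured 77.8, 50.2 and 43.7 TPM over PD2, PD8 and PD14 after rRNA depletion, and 121, 81.9 and 72.0 TPM after poly(A) enrichment. Nop2, a methyltransferase of large-subunit rRNA, measured 49.8, 42.4 and 31.8 TPM over PD2, PD8 and PD14 after rRNA depletion, and 98.0, 67.5 and 58.2 TPM after poly(A) enrichment. Pes1 encodes pescadillo, which forms the PeBoW complex with BOP1 and WDR12. Pes1 measured 69.7, 48.9 and 41.4 TPM over PD2, PD8 and PD14 after rRNA depletion, and 107, 83.4 and 78.0 TPM after poly(A) enrichment. Within each method all 3 genes were lowest at PD14, and across methods the PD14 and PD2 values overlapped for Nop2 and Pes1 but not for Noc2l. Fitted changes were -0.78 ± 0.12 (adjusted p = 0.0267), -0.69 ± 0.14 (adjusted p = 0.0416) and -0.60 ± 0.13 (adjusted p = 0.0493). The other PeBoW genes, Bop1 and Wdr12, were at -0.41 ± 0.15 (adjusted p = 0.133) and -0.31 ± 0.18 (adjusted p = 0.289).

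The remaining large-subunit genes did not pass. Nip7, Rrp1b, Ebna1bp2, Nop16 and Nsa2 were at -0.58 ± 0.17, -0.57 ± 0.21, -0.55 ± 0.15, -0.44 ± 0.14 and -0.42 ± 0.11, with adjusted p between 0.0744 and 0.133. Wdr74, which acts with a helicase in remodelling the large-subunit precursor, was the one gene of the 39 with a lower PD14 value in the rRNA-depleted and a higher one in the poly(A) libraries. Wdr74 measured 39.4, 37.9 and 30.7 TPM over PD2, PD8 and PD14 after rRNA depletion, and 27.7, 39.7 and 35.6 TPM after poly(A) enrichment. Its fitted change was 0.00148 ± 0.21 (adjusted p = 0.997), with a 95% interval of -0.53 to 0.53.

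**Figure D4:**
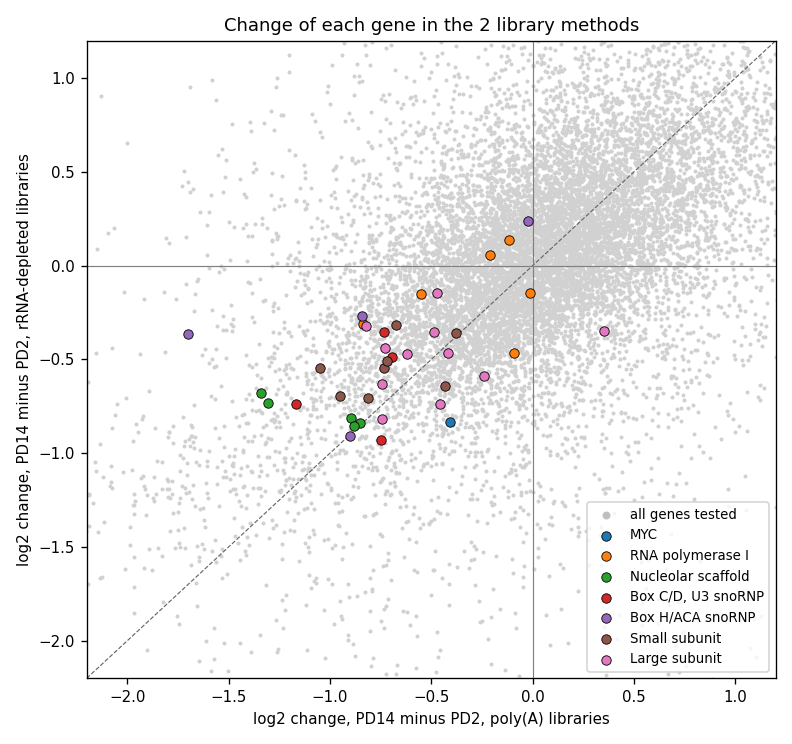
Log2 change in (TPM + 1), PD14 minus PD2, in the poly(A) libraries (horizontal axis) against the rRNA-depleted libraries (vertical axis); coloured points are the 39 genes by role, grey points are the other genes tested within the plotted range, and the dashed line marks equal change. Of the 39, 35 lie in the lower left part, below 0 on both axes, Wdr74 lies at 0.35 on the horizontal axis, and Dkc1 lies farthest to the left at -1.70.

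PD8 was compared with PD2 for the early step and PD14 with PD8 for the late one; these comparisons share libraries with each other and with that of PD14 and PD2. Neither step called any of the 39 genes (limma, 0 of 39 in each). At the early step 21 were lower and 0 higher at an unadjusted p under 0.05, against 8.39% and 12% of all genes tested, of which 0 were called lower and 3 (0.0225% of those tested) higher after adjustment. The count over all genes, in either direction, was 626 without the PD2 rRNA-depleted library, 278 without the PD2 poly(A) library and 0 without any 1 of the other 4. At the late step Ncl, Nhp2 and Nop56 were lower and 0 higher at that threshold, against 2.7% and 2.9% of all genes, of which 0 were called in either direction. The median fitted change of the 39 was -0.43 at the early step and -0.20 at the late step, against 0.04 and 0.01 for all genes tested. Fitted values were below 0 for 35 of the 39 at the early and 36 at the late step, against 45.9% and 47.7% of all genes. In both methods 35 were lower at PD8 than at PD2, against 31.7% of all genes, and 2 (Nop10 and Polr1c) were higher, against 37.7%. Polr1e and Wdr74 were lower at PD8 in rRNA-depleted and higher in poly(A) RNA, a pattern of 18.7% of all genes, and 0 of the 39 had the opposite pattern, against 11.6%. In both methods 28 were lower at PD14 than at PD8 and 0 higher, against 25.3% and 27.4% of all genes. A further 5 were lower at PD14 than at PD8 in rRNA-depleted RNA alone and 6 in poly(A) RNA alone, against 17.7% and 29.1%.

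By role, the early and late medians were -0.60 and -0.33 for the nucleolar genes, -0.54 and -0.28 for the box C/D and U3 group, -0.45 and -0.20 for the box H/ACA group, -0.46 and -0.21 for the small-subunit factors, -0.38 and -0.16 for the large-subunit factors and -0.13 and -0.10 for RNA polymerase I. Myc was at -0.17 ± 0.20 at the early step and -0.45 ± 0.20 at the late step. The late step minus the early step was not called for any of the 39 genes (limma, 0 at an unadjusted p under 0.05), nor for any gene tested (2.77% lower and 1.48% higher at an unadjusted p under 0.05), and it was negative for 9 of the 39, against 52.5% of all genes. An F test over the 3 groups called 0 of the 39, against 1.46% of all genes tested, with Nhp2 nearest at an adjusted p of 0.0535. The 39 genes included 27 whose value declined at both steps in both methods, as 13% of all genes tested did, and 0 whose value increased at both steps in both, against 15%. Taken by method, 33 declined at both steps in rRNA-depleted and 30 in poly(A) RNA, against 24.3% and 28.4% of all genes, while 2 (Nop10 and Polr1c) and 0 increased at both, against 30.6% and 30.4%.

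Other genes of the pathway were taken from lists set by function. Their counts of calls in PD14 against PD2 stand beside 4.77% lower and 6.41% higher among all genes tested. Of 18 further RNA polymerase I subunits and factors, 2 fell and 0 rose in PD14 against PD2, with a median of -0.17: Taf1d, a subunit of the promoter-selectivity factor of RNA polymerase I, at -1.34 ± 0.19 (adjusted p = 0.0244), and Mybbp1a, a nucleolar MYB-binding protein, at -0.72 ± 0.15 (adjusted p = 0.0442). Taf1d measured 241, 102 and 90.7 TPM over PD2, PD8 and PD14 after rRNA depletion, and 84.9, 56.0 and 34.3 TPM after poly(A) enrichment. Of 45 further small-subunit factors, Utp14a fell (-0.72 ± 0.15) and 0 rose, with a median of -0.36. Of 48 further large-subunit factors, 4 fell and 0 rose, with a median of -0.27. They were Rpf2 and Rrs1, which together load a small ribosomal RNA and its proteins onto the precursor, at -1.03 ± 0.18 and -0.84 ± 0.13, Rsl1d1 at -0.70 ± 0.11 and Ppan at -0.67 ± 0.13. Of 18 tested snoRNP assembly and modification factors 0 were called (limma); Ruvbl2, an ATPase of snoRNP assembly, was nearest at -0.65 ± 0.15 (adjusted p = 0.0522), and the median was -0.42.

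Lists of neighbouring machineries were counted in the same way, beside the same shares of all genes tested (4.77% lower and 6.41% higher). Of 13 tested RNA exosome genes, Dis3, which encodes a catalytic subunit, fell (-0.86 ± 0.17), with a median of -0.24. Of 11 RNA polymerase III subunits Polr3g fell (-1.46 ± 0.26), with a median of -0.22, and of 8 RNA polymerase II subunits 0 were called (limma), with a median of -0.09 and Polr2i nearest at -0.28 ± 0.15 (adjusted p = 0.25). Of 11 genes of the MYC network 1 rose and 0 fell, with a median of -0.01. The gene that rose was Mxd4, which encodes a MAX-binding repressor that competes with MYC. Mxd4 measured 87.6, 130.2 and 145 TPM over PD2, PD8 and PD14 after rRNA depletion, and 58.9, 132 and 148 TPM after poly(A) enrichment. Its PD14 values were above its PD2 values in every pairing of libraries, and it rose by 1.01 ± 0.19 (adjusted p = 0.036). Max was at 0.0649 ± 0.13 (adjusted p = 0.763). These medians describe the lists, and differences between lists were not tested.

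**Figure D5:**
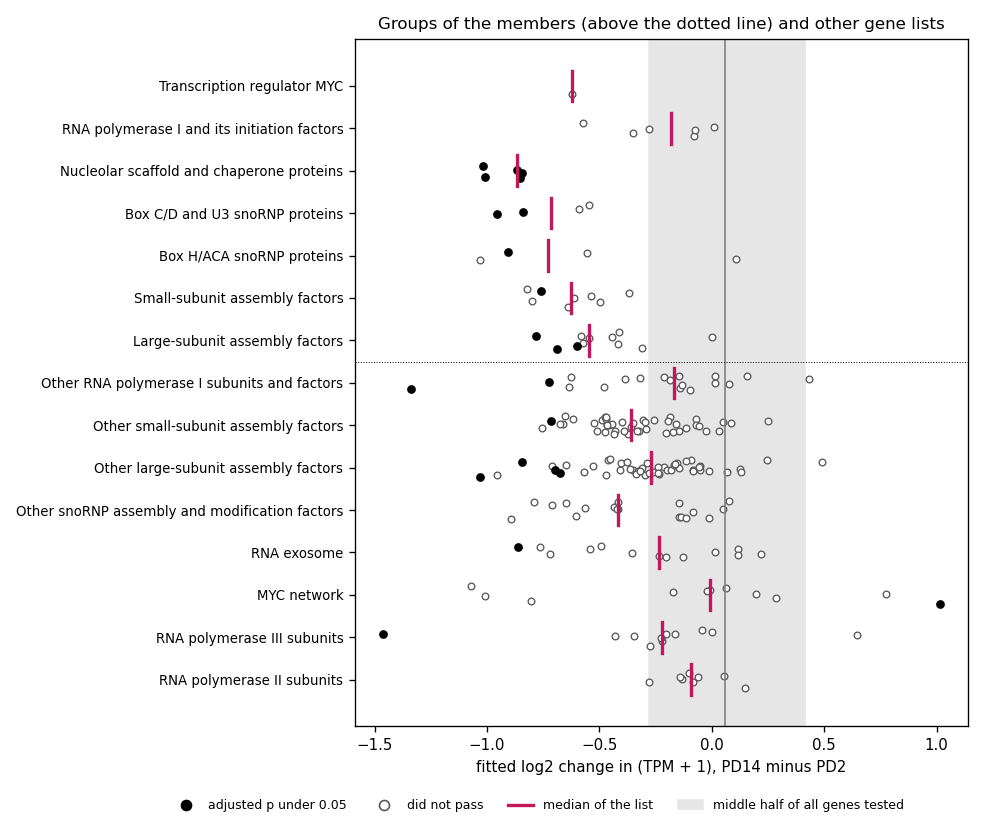
Fitted log2 change in (TPM + 1), PD14 minus PD2 (horizontal axis), of each gene in the role groups of the 39 genes (above the dotted line) and in further lists; filled points passed the test, open ones did not, bars are medians, the grey band runs from the lower to the upper quartile of all genes tested (-0.28 to 0.41) and the grey line is their median (0.06). The medians of the nucleolar, snoRNP and subunit groups of the 39 lie left of the band, while that of RNA polymerase I lies within it. Of the further lists, the medians of the small-subunit and snoRNP factors lie left of the band. Those of all other further lists, the large-subunit factors and the MYC network among them, lie within it.

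Markers of division and of other cell types were read in the same libraries, where 4.77% of all genes tested were called lower and 6.41% higher. Of 10 cell division markers, including Mki67, Pcna and Cdk1, 10 fell, with a median of -1.69, and their summed TPM at PD14 and PD2 was 308 and 785 (rRNA-depleted) and 209 and 707 (poly(A)). Of 10 tested macrophage and leukocyte markers 0 were called (limma). The list's summed TPM over PD2, PD8 and PD14 was 151, 29.4 and 40.5 (rRNA-depleted) and 405, 708 and 664 (poly(A)). From PD2 to PD8 the sum thus fell in 1 method and rose in the other. Cell content may differ between the libraries of the 2 methods, which was not tested. Of 7 muscle markers 5 were tested and 4 fell, with sums of 5.50 and 50.3 TPM (rRNA-depleted) and 12.5 and 109 TPM (poly(A)) at PD14 and PD2. Of 6 epithelial markers 3 were tested and 2 fell, with sums at PD14 and PD2 of 5.21 and 22.1 TPM (rRNA-depleted) and 2.37 and 39.2 TPM (poly(A)). Of 3 tested endothelial markers 1 fell, of 5 tested neural markers 2 fell and 1 rose, and of 11 fibroblast markers 0 fell and 3 rose. The neural list summed at PD14 and PD2 to 182.8 and 121.5 TPM (rRNA-depleted) and 148 and 221 TPM (poly(A)). The part of division or of other cells in the values of the 39 genes was not tested.

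Some of the values are uncertain because reads can be shared. Transcripts of other annotated genes matched Npm1, Ddx21, Fbl, Nop56, Wdr12, Pes1 and Nsa2 at 95% identity or more over at least 200 bases. Exons of 14 of the 39 genes overlap those of a protein-coding gene on the opposite strand, most of all Nsa2 (1590 bases with Fam169a) and Tsr1 (1240 bases with Srr). Of the 12 called genes, Noc2l (598 bases with Samd11), Pes1 (138 bases), Nhp2 (44 bases), Gnl3 (15 bases) and Nop56 (5 bases) have such an overlap. The replicate 1 libraries are strand-specific, and the counting of strand is not given in the sources used here.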

How the data were processed

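RNA-seq of 6 MEF libraries was analysed, 2 at each of PD2, PD8 and PD14. The authors deposited TPM per gene in 1 table of 21988 symbols; per the submitters' processing notes the tools were StringTie 1.3.1c, HISAT2 2.0.5, cutadapt 1.14 and bcl2fastq and the build was mm10, and neither their order nor the annotation is given there. TPM hold no counts, so depth is unknown and count tests could not be used.

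Values were taken as log2(TPM + 1), with genes at 1 TPM or more in 2 libraries kept, and fitted in R 4.3.3 with limma 3.58.1. The fit had a trend in the variance, library method as a block, and 2 residual and 3.22 prior degrees of freedom. Tests were two-sided. The fit was also run on simulated data with known changes. That simulation gave every gene the same spread and independent libraries, so it does not show how the calls hold in these data. Replicate number marks the library method per the labels. Libraries of the same number deviated together from their group means (correlations 0.664 to 0.854); with 2 libraries per group the deviations of both numbers mirror each other. The pseudocount of 1 shrinks the changes of low genes.

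Members and lists were chosen with earlier results of these data known. Values in every library are given for Myc, the RNA polymerase I genes, the 12 called genes and the 3 with the widest gap between methods (Dkc1, Wdr74 and Ncl). In other lists the called genes with the largest change are named or, where none was called, the gene with the smallest p; Max, Mycn, Mycl, Mxd1 and Mxd3, and the per-library values of Taf1d and Mxd4, were added after their values were seen. Riok2 of the small-subunit list was not analysed here. Positions are from GENCODE M21, promoters from RefSeq, and copies were sought with blastn 2.17.0. The alternatives were 2 pseudocounts, 2 filters, 2 scalings, quantile normalization, no trend, no block and each library left out.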

Additional observations from a re-analysis of the deposited data

How the results depend on the processing

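The 12 genes called lower at PD14 than at PD2 kept negative values in all 15 alternatives. They were picked by lower PD14 values in the same libraries, so the kept sign is no separate support. In the 9 alternatives that kept all 6 libraries, 0 of the 39 were called higher (limma). Replicate number is the library method, and without the replicate block 0 of the 39 were called (10 at an unadjusted p under 0.05), and 0 of all genes tested. Without the filter on low values 6 of the 39 were called lower, with 175 of all genes lower and 229 higher, and without the mean-variance trend 5, with 398 and 540, against 636 and 854 in the main analysis. With pseudocounts of 0.1 and 5 the counts were 12 and 11, with the stricter filter or quantile normalization 15 each, and with either rescaling 13. Quantile normalization turned the split of all genes to 834 lower and 736 higher.

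With 1 library left out at a time, which leaves 1 group with a single library assumed to vary like the others, the called genes numbered 0 to 15 for PD14 against PD2, 0 to 2 for PD8 against PD2 and 0 to 4 in the F test, and 0 for PD14 against PD8 and for the difference of the steps. Calls among all genes ranged from 0 to 612 lower and 0 to 1181 higher for PD14 against PD2, and from 0 to 626 in either direction for PD8 against PD2, where the other alternatives gave 0 to 21. The medians of the 39 ranged from -0.76 to -0.47 for PD14 against PD2, from -0.51 to -0.28 for PD8 against PD2 and from -0.29 to -0.16 for PD14 against PD8. Gnl3, Ddx21, Nop56 and Nhp2 were called in 10 of the 15 alternatives each. Fitted values of 34 of the 39 genes were negative in all 15. In all, 37 fitted values of single genes changed sign under an alternative, none of a called gene, with adjusted p of 0.382 or more. For PD14 against PD2, a pseudocount of 5 gave -0.000323 for Wdr74. For PD14 against PD2, rescaling without mitochondrial genes gave -0.0224 for Polr1c and -0.0317 for Wdr74. For PD14 against PD2, quantile normalization gave -0.0514 for Polr1c and -0.10 for Wdr74. With libraries left out, PD14 against PD2 ranged from -0.00419 to 0.22 for Nop10, -0.11 to 0.13 for Polr1c, -0.33 to 0.17 for Polr1e, -0.19 to 0.036 for Ubtf and -0.31 to 0.32 for Wdr74. With libraries left out, PD8 against PD2 ranged from -0.42 to 0.0782 for Myc, -0.00251 to 0.16 for Nop10, -0.0247 to 0.12 for Polr1c, -0.14 to 0.65 for Polr1e, -0.22 to 0.00694 for Ubtf and -0.0903 to 0.54 for Wdr74. With libraries left out, PD14 against PD8 ranged from -0.22 to 0.0481 for Bysl, -0.62 to 0.23 for Dkc1, -0.24 to 0.024 for Ebna1bp2, -0.30 to 0.0137 for Nip7, -0.0836 to 0.14 for Nop10, -0.14 to 0.21 for Nop58, -0.23 to 0.0556 for Polr1a, -0.43 to 0.19 for Polr1b, -0.15 to 0.0782 for Polr1c, -0.73 to 0.0593 for Polr1e, -0.27 to 0.0392 for Rrn3, -0.43 to 0.11 for Rrp1b and -0.0585 to 0.12 for Ubtf. The cause of these shifts was not tested. Unknown depth limits the low genes most.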

Other observations

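Several of the 39 genes also have snoRNA genes within their bounds, and whether these lie in introns was not checked. Where a snoRNA lies in an intron, 1 transcript can yield both a protein of ribosome assembly and a guide RNA. GENCODE M21 places 21 snoRNA genes on the same strand inside 7 of the 39: 5 in Nop56, 4 in Nop58, 3 each in Ncl, Gnl3 and Wdr43, 2 in Tsr1 and 1 in Dkc1. Of these hosts, Nop56, Ncl, Gnl3 and Wdr43 were called lower at PD14 than at PD2. Nop58, Tsr1 and Dkc1 were at -0.59, -0.37 and -1.03 without passing. Of all 39 genes 30.8% were called lower, and of all genes tested 4.77%. Whether hosts differ from the other genes of the 39 was not tested. The table holds 0 rows for annotated snoRNA genes, so their levels were not analysed here.

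The other MYC family genes had lower levels than Myc. Mycn had 1.28, 0.378 and 0.342 TPM over PD2, PD8 and PD14 after rRNA depletion, and 1.59, 0.564 and 0.444 TPM after poly(A) enrichment. Mycl had 1.79, 0.744 and 0.756 TPM and 8.22, 3.87 and 2.60 TPM in the same order. Neither passed in PD14 against PD2 (adjusted p = 0.108 for Mycn and 0.0789 for Mycl; limma). Of the genes of the MAX-binding repressors, Mxd1 was at 0.77 ± 0.23 (adjusted p = 0.0934) and Mxd3 at -1.07 ± 0.24 (adjusted p = 0.0514), on opposite sides of 0.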
